A study of Mus musculus with 16 samples.

Results

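Heterotrimeric G protein subunits were followed through 10 genes of the deposited table of 30386, namely 6 that encode alpha subunits (*Gnao1*, *Gnai1*, *Gnai2*, *Gnai3*, *Gnas* and *Gnaq*), 1 that encodes a beta subunit (*Gnb1*) and 3 that encode gamma subunits (*Gng5*, *Gng11* and *Gng12*). They were selected by symbol, and *Gnao1* and *Gng11* were chosen on their levels in these samples, as genes that differed between *Dbx2*-NSPCs and *GFP*-NSPCs, to be set against their paralogs. The comparison of the transgenes is therefore given for the 10 genes as a description, with no test. All 10 passed the filter on low values, which kept 12533 genes. The filter asked for a CPM above 1 in no fewer than 4 of the 16 samples. CPM are the reads of a gene scaled to the total of its sample. *Gng11* passed through its *GFP*-NSPC samples alone, as it was at 0.90 CPM at most in *Dbx2*-NSPCs.

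The RNA came from neural stem and progenitor cells (NSPCs) of the subventricular zone of C57BL/6J/Babr mice aged 3 months, which had received a plasmid for *Dbx2* (*pTP6-Dbx2*) or for green fluorescent protein (*pTP6-hrGFP*) by nucleofection. Both kinds of line were kept under puromycin and grown without attachment in EGF and FGF2 for 4 to 6 days, and there were 8 samples of each. The lines are bulk cultures of 2 independent derivations, and the labels give a replicate number from 1 to 8 but not the derivation. *Dbx2* encodes a homeobox transcription factor, and the study asked how its constitutive expression changes the transcriptome of these cells. Libraries were primed at the poly-A tail, so each transcript gives reads near its 3′ end and CPM are not divided by transcript length.

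A heterotrimeric G protein carries the signal of a membrane receptor into the cell. The receptor makes the alpha subunit exchange GDP for GTP, upon which alpha and the beta-gamma pair separate and act on adenylyl cyclases, phospholipase C-beta, ion channels and kinases, until the alpha subunit hydrolyses its GTP, a step that RGS proteins speed up. The Gi/o class holds the products of *Gnai1*, *Gnai2*, *Gnai3* and *Gnao1*, of which the 3 Gi alpha subunits lower cyclic AMP. Go, the product of *Gnao1*, is best known as an abundant alpha subunit of neural tissue. *Gnas* encodes Gs, which raises cyclic AMP, and *Gnaq* encodes Gq, which activates phospholipase C-beta. Gamma subunits are short proteins whose C-terminus receives a lipid, a farnesyl group in the case of *Gng11* and a geranylgeranyl group in most others, which holds the beta-gamma pair at the membrane.

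The 3 gamma genes are shown by their whole coding sequence, from start to stop codon, because *Gng11* is contrasted with *Gng5* and *Gng12* throughout. Capitals mark the last 4 codons before the stop, which encode the CAAX box, the site of prenylation. The sequences are those of the principal coding transcript of each gene in GENCODE M21 (build GRCm38).
Gng11: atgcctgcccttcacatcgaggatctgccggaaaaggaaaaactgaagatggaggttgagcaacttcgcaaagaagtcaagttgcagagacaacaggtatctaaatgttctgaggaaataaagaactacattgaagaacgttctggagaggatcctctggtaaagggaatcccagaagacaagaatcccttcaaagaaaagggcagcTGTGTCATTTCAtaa
Gng5: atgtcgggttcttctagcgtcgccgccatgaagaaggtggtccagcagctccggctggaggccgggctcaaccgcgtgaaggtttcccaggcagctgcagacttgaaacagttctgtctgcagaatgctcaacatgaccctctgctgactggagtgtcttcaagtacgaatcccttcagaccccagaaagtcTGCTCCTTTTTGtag
Gng12: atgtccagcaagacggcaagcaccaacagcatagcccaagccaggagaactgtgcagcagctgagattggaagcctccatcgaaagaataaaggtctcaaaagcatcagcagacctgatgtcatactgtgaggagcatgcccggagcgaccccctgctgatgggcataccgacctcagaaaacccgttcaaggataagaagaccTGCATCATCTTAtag
*Gng11* lies on chromosome 6 from 4003904 to 4008445 (plus strand), *Gng12* on the same chromosome from 66896397 to 67021350 (plus strand), and *Gng5* on chromosome 3 from 146499807 to 146505572 (plus strand). The coding sequence of *Gng11* is 222 bases long and was identical to that of *Gng5* at 51.8% and to that of *Gng12* at 55.9% of aligned positions. No run of 31 bases was shared within the last 500 bases of these transcripts, the part that 3′ reads come from, so their reads can be told apart.

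The alpha genes are shown by the last 63 bases of their coding sequence, which encode the tail that contacts the receptor. Capitals mark the fourth codon before the stop. In *Gnao1* and the 3 *Gnai* genes it encodes the cysteine that pertussis toxin modifies. In *Gnas* and *Gnaq* it is another codon. The transcripts were taken from the same release in the same way.
Gnao1: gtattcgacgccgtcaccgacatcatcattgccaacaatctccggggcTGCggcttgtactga
Gnai1: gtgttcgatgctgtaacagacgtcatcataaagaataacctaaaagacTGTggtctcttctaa
Gnai2: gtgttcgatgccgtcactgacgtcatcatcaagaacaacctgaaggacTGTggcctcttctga
Gnai3: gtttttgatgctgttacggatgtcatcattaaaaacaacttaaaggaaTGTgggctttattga
Gnas: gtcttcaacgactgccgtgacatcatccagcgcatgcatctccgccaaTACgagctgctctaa
Gnaq: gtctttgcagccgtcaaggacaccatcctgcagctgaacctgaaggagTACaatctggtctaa
*Gnao1* lies on chromosome 8 from 93809966 to 93969388 (plus strand), *Gnai1* on chromosome 5 from 18265135 to 18360355 (minus strand), *Gnai2* on chromosome 9 from 107614125 to 107635367 (minus strand) and *Gnai3* on chromosome 3 from 108107280 to 108146146 (minus strand). *Gnas* lies on chromosome 2 from 174284320 to 174346744 (plus strand) and *Gnaq* on chromosome 19 from 16132831 to 16387463 (plus strand). The coding sequence of *Gnao1* was identical to those of the 3 *Gnai* genes at 66.9% to 70.2% of aligned positions, and again no run of 31 bases was shared near the transcript ends. The table holds a single value per gene, so the 7 coding transcripts of *Gnao1* and the 16 of *Gnas* are not told apart.

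The samples held 1803928 to 3293285 reads each, recovered from the CPM steps, and 3 reads, taken as the floor, were worth 0.911 to 1.66 CPM; floors cover counting error only. *Dbx2* averaged 155 ± 35.4 CPM in *Dbx2*-NSPCs against 77.2 ± 51.8 CPM in *GFP*-NSPCs (SD, n = 8 each; log2 fold change 1.26, limma adjusted p = 0.00978, up to 0.0891 over the alternatives), and the groups overlapped in the samples numbered 1 to 4. The samples numbered 1 to 4 and 5 to 8 are known from earlier results on these data to lie apart in both groups, and *GFP*-NSPC replicate 1 stood apart there too. Whether these sets are the 2 derivations cannot be told from the labels. Summed over 8 NSPC markers the level ran from 5455 to 6031 CPM in *GFP*-NSPCs, and from 4533 to 5597 CPM in *Dbx2*-NSPCs, with *Pax6*, *Fabp7* and *Egfr* lower (limma adjusted p under 0.05 for each marker named as higher or lower here). The 5 astrocyte markers summed to 668 to 2111 CPM and 408 to 1065 CPM, with *Gfap* higher (log2 fold change 3.31) and *Aldh1l1* and *Slc1a3* lower. The 6 neuron markers summed to 840 to 1294 CPM and 706 to 906 CPM, nearly all of it *Map2* (1053 and 751 CPM on average), which was lower. The other 5 did not pass, with log2 fold changes from -0.72 (*Snap25*) to 0.47 (*Rbfox3*). For 2 of them, singled out after their values were seen, the direction differed between replicates 1 to 4 and 5 to 8. These were *Dcx* (-2.87 and 3.02, limma adjusted p of the difference = 3.26e-07) and *Rbfox3* (-1.96 and 2.90, limma adjusted p of the difference = 3.9e-06). The 6 oligodendrocyte markers were nearly all *Olig1* (1399 and 1415 CPM on average), the 8 endothelial or mural markers summed to at most 11.2 CPM, and the 5 microglia markers to at most 2.29 CPM. The part of cell composition in the results below was not tested, and in bulk RNA fewer cells of a type and less RNA per cell cannot be told apart.

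*Gnao1* and *Gng11* differed between the transgenes in opposite directions, and none of their paralogs among the members followed either of them to that size. Of the 10 genes, 4 had a positive and 6 a negative log2 fold change. Under the rule used for all genes (limma adjusted p under 0.05), 3 of them would be called, *Gnao1* as higher and *Gnaq* and *Gng11* as lower, where 15.8% of all tested genes were; the same 3 did not overlap between the groups, where 3.41% of all genes did not. Since this contrast chose the genes, nothing is read from these counts.

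*Gnao1* was at 6.04 (lowest), 11.4 (median) and 16.4 CPM (highest) in *GFP*-NSPCs and at 62.3, 79.0 and 105 CPM in *Dbx2*-NSPCs. Every *Dbx2*-NSPC sample thus lay above every *GFP*-NSPC sample, in both numbered sets. The means were 11.8 ± 3.24 and 78.6 ± 13.7 CPM (SD, n = 8), with a ratio of 6.67 and a log2 fold change of 2.72 (standard error 0.166; 2.94 in the samples numbered 1 to 4 and 2.5 in those numbered 5 to 8). The lowest value, 6.04 CPM, was that of *GFP*-NSPC replicate 1, and without it the log2 fold change was 2.60.

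*Gnai2*, the Gi gene with by far the most reads, was at 762, 1139 and 1454 CPM in *GFP*-NSPCs and at 1056, 1373 and 1710 CPM in *Dbx2*-NSPCs (lowest, median and highest). The groups overlapped over all samples but not within either numbered set, where *Dbx2*-NSPCs were higher by 0.25 (samples 1 to 4) and 0.30 (samples 5 to 8) on the log2 scale. *Gnai3* differed the other way, with 37.6 ± 4.74 CPM in *GFP*-NSPCs against 30.4 ± 6.40 CPM in *Dbx2*-NSPCs (SD, n = 8 each; log2 fold change -0.32, standard error 0.130), and its groups overlapped.

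*Gnai1* stood out among the paralogs by its dependence on the numbered set. In *GFP*-NSPCs it was at 55.2, 65.6, 45.6 and 47.3 CPM in replicates 1 to 4 and at 7.76, 10.4, 12.6 and 13.2 CPM in replicates 5 to 8. In *Dbx2*-NSPCs the values were 48.5, 47.0, 44.3 and 66.4 CPM in replicates 1 to 4 and 24.3, 29.2, 26.6 and 30.1 CPM in replicates 5 to 8. The groups overlapped in the former set and not in the latter, with log2 fold changes of -0.05 (standard error 0.161) and 1.31 (standard error 0.194).

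*Gnaq* was lower in every *Dbx2*-NSPC sample than in any *GFP*-NSPC sample, at 79.3, 95.1 and 110 CPM against 111, 126 and 143 CPM (lowest, median and highest; log2 fold change -0.43, standard error 0.083). The gap was narrow, 110 against 111 CPM. *Gnas* averaged 938 ± 101 CPM in *GFP*-NSPCs against 942 ± 88.1 CPM in *Dbx2*-NSPCs (SD, n = 8 each), and its log2 fold change of 0.01, with a standard error of 0.079, is the smallest difference among the members. The 6 alpha genes summed to 2288 ± 354 CPM in *GFP*-NSPCs against 2553 ± 335 CPM in *Dbx2*-NSPCs (SD, n = 8 each). *Gnao1* made up 1.01% ± 0.357 of the reads of the 4 Gi/o members in *GFP*-NSPCs and 5.24% ± 0.675 in *Dbx2*-NSPCs, and *Gnai2* 93.3% ± 0.795 and 90.1% ± 1.18 (SD, n = 8 each); *Gnaz*, a further gene of this class that is no member, is not in the total, and these are shares of 3′ reads, not of protein.

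**Figure D1:**
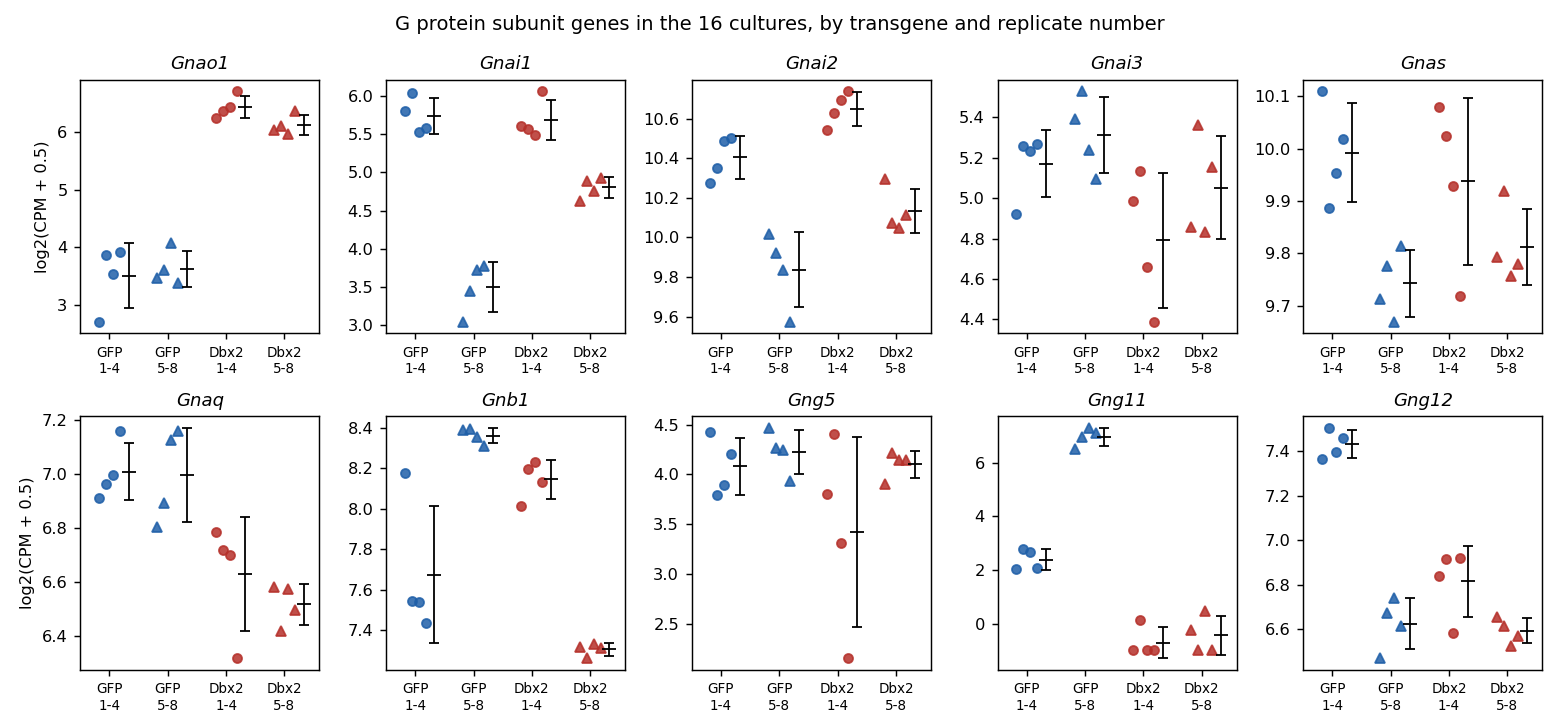
Level of the 10 G protein subunit genes in each sample, as log2(CPM + 0.5), with *GFP*-NSPCs in blue and *Dbx2*-NSPCs in red, replicates 1 to 4 as circles and 5 to 8 as triangles; black bars are the mean and SD of the 4 samples, and each panel has its own axis. *Gnao1* is higher in all *Dbx2*-NSPC samples, *Gng11* is at or near 0 reads in all of them, and the order of the groups turns between the numbered sets in *Gnb1*.

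*Gnb1* (chromosome 4, 155491361 to 155559269, plus strand) encodes a beta subunit, the partner shared by the alpha and gamma proteins above. In *GFP*-NSPCs it was at 288, 186, 185 and 173 CPM in replicates 1 to 4 and at 335, 335, 326 and 317 CPM in replicates 5 to 8. In *Dbx2*-NSPCs the order was the opposite, with 258, 293, 300.2 and 280 CPM in replicates 1 to 4 and 159, 153, 160 and 158 CPM in replicates 5 to 8. Within replicates 5 to 8 the groups did not overlap and *Dbx2*-NSPCs were lower by 1.06 on the log2 scale (standard error 0.067). Within replicates 1 to 4 *Dbx2*-NSPCs were higher by 0.47 (standard error 0.146), with *GFP*-NSPC replicate 1 alone in the range of the *Dbx2*-NSPC samples. The pooled log2 fold change of -0.29 therefore describes neither set.

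*Gng11* was read 1403 times in the 8 *GFP*-NSPC samples and 5 times in the 8 *Dbx2*-NSPC samples. In *GFP*-NSPCs it was at 3.63, 6.35, 5.86 and 3.67 CPM in replicates 1 to 4 and at 90.3, 122, 154 and 138 CPM in replicates 5 to 8. In *Dbx2*-NSPCs 5 of the 8 samples had 0 reads, and the other 3 were at 0.61 CPM (replicate 2), 0.35 CPM (replicate 5) and 0.90 CPM (replicate 7), each no more than 2 reads. The groups did not overlap in either set. Against the floor of 3 reads per library, *Gng11* was at least 63.2-fold lower in *Dbx2*-NSPCs over all samples, at least 4.97-fold lower in replicates 1 to 4 and at least 116-fold lower in replicates 5 to 8. The bound rests mainly on replicates 5 to 8, which gave 1347 of the 1403 reads; the fitted log2 fold change of -5.25 (standard error 0.782) depends on the pseudocount and is no bound.

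*Gng12*, which also carries a CAAX box, was at 164 to 181 CPM in *GFP*-NSPC replicates 1 to 4, and at 88.1 to 106 CPM in replicates 5 to 8. The *Dbx2*-NSPC samples lay at 91.6 to 121 CPM, below the former and within reach of the latter, so that the log2 fold change was -0.62 (standard error 0.102) in replicates 1 to 4 and -0.03 (standard error 0.088) in replicates 5 to 8. *Gng5* averaged 17.5 ± 3.06 CPM in *GFP*-NSPCs against 14.3 ± 5.37 CPM in *Dbx2*-NSPCs (SD, n = 8 each), with overlapping groups. Its log2 fold change of -0.39 rested in large part on *Dbx2*-NSPC replicate 4, which had 3.95 CPM, and was -0.16 without that sample.

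The contrast with the paralogs was also taken within each sample. CPM are already scaled to depth, and near 0 reads the difference still depends on depth and on the pseudocount. The log2 level of *Gnao1* less the mean of *Gnai1*, *Gnai2* and *Gnai3* was -3.09 ± 0.65 in *GFP*-NSPCs against -0.56 ± 0.16 in *Dbx2*-NSPCs (SD, n = 8 each), with no overlap. The level of *Gng11* less the mean of *Gng5* and *Gng12* was -3.37 ± 0.51 in *GFP*-NSPC replicates 1 to 4, below its paralogs, but 1.53 ± 0.37 in replicates 5 to 8, above them (SD, n = 4 each). In *Dbx2*-NSPCs it was -5.81 ± 0.55 (SD, n = 8), a value set by the pseudocount of 0.5. *Gng11* thus held 2.52% of the reads of the 3 gamma genes in *GFP*-NSPC replicates 1 to 4, 51.5% in replicates 5 to 8 and 0.195% in *Dbx2*-NSPCs. The summed level of the 3 genes was 218 ± 34.1 CPM in *GFP*-NSPCs against 119 ± 11.8 CPM in *Dbx2*-NSPCs (SD, n = 8 each).

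**Figure D2:**
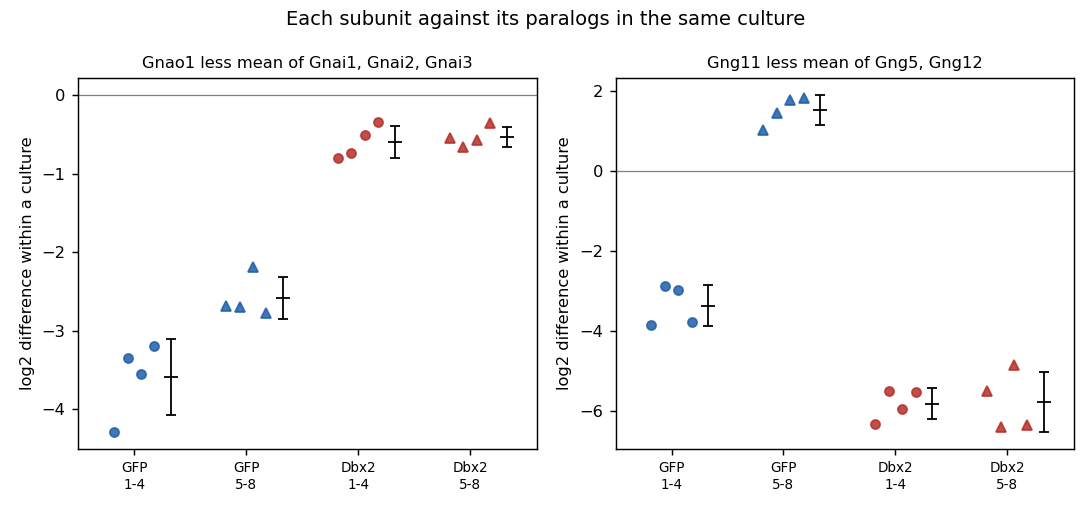
Difference on the log2(CPM + 0.5) scale, within each sample, between *Gnao1* and the mean of its 3 Gi paralogs (left) and between *Gng11* and the mean of *Gng5* and *Gng12* (right), for *GFP*-NSPCs (blue) and *Dbx2*-NSPCs (red), replicates 1 to 4 (circles) and 5 to 8 (triangles), with mean and SD of 4 samples. *Gnao1* averages -3.09 in *GFP*-NSPCs against -0.56 in *Dbx2*-NSPCs, and *Gng11* lies above its paralogs in *GFP*-NSPC replicates 5 to 8 and below them elsewhere.

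The members were next compared between the numbered sets, averaged over the transgenes. This difference is independent of the contrast that chose the genes, but the sets were already known to lie apart in these data, so it is given as a description with no p. Under the rule used for all genes 5 of the 10 members would be called, *Gng11* among them, where 29.9% of all tested genes were. *Gnai1* was lower in replicates 5 to 8 (log2 difference -1.56, standard error 0.193), and so were *Gnai2* (-0.54, standard error 0.069), *Gng12* (-0.51, standard error 0.093) and, to a small extent, *Gnas* (-0.19, standard error 0.063). The difference of *Gng11* was that of the *GFP*-NSPCs, in which the ratio of the means was 25.8, since all *Dbx2*-NSPC samples were at 2 reads or fewer. *Gnao1* differed by -0.10 (standard error 0.161), the least of the members apart from *Gnaq* and *Gnb1*.

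The difference of the transgene effect between the sets was tested as an interaction, with the same reservation on the choice of the sets, and passed in 4 of the 10 genes, *Gng11* among them, where 9.44% of all tested genes passed. For *Gng11* it restates the difference between the sets in *GFP*-NSPCs, as the *Dbx2*-NSPC samples lie under the floor in both sets, and its fitted value of -4.29 is not read further; edgeR on the recovered reads gave an adjusted p of 0.180. The log2 fold change of *Gnb1* was lower by 1.53 in replicates 5 to 8 than in 1 to 4 (standard error 0.163, limma adjusted p = 3.35e-07; 1.69 without *GFP*-NSPC replicate 1). For *Gnai1* it was higher by 1.36 (standard error 0.249, limma adjusted p = 0.000456) and for *Gng12* by 0.58 (standard error 0.139, limma adjusted p = 0.00624). The difference for *Gnao1* did not pass (-0.44, standard error 0.301, limma adjusted p = 0.437), and was -0.17 without *GFP*-NSPC replicate 1. *Dbx2* itself had a larger fold change in replicates 5 to 8 (by 1.45, limma adjusted p = 0.000104), and its part in these differences was not tested.

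**Figure D3:**
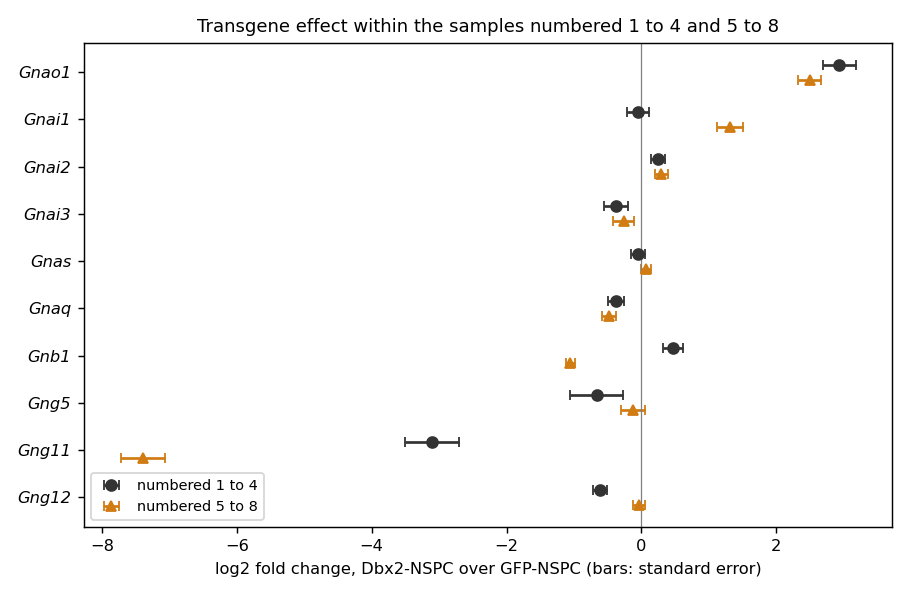
Log2 fold change of *Dbx2*-NSPCs over *GFP*-NSPCs for each subunit gene within replicates 1 to 4 (dark circles) and 5 to 8 (orange triangles), 4 samples a group, with standard errors. *Gnao1* lies at 2.94 and 2.5, *Gnb1* changes sign from 0.47 to -1.06, and the values of *Gng11* are limited by samples with 0 reads.

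Among the other genes of the pathway, 13 of the 73 tested changed with the transgene. This is 17.8%, close to the 15.8% of all tested genes, so the count is not read as a result about the pathway. The 13 included regulators of and receptors for the Gi/o class in both directions. The lists, which leave out the 10 members, hold 133 genes, of which 73 were tested; 7 were higher and 6 lower in *Dbx2*-NSPCs (limma adjusted p under 0.05, where 15.8% of all tested genes passed). The median log2 fold change of the 73 was 0.06, against -0.02 over all tested genes. The fit with a replicate block called 17 of the 73, and 2723 of all 12533 tested genes, so this count is not read further either. Among the 7 higher genes, *Rgs8*, *Adcy2*, *Grm4* and *Sstr2* were at 1.23 CPM at most in any *GFP*-NSPC sample. They passed the filter on low values through their *Dbx2*-NSPC samples alone, and their adjusted p-values are given with this limit. With a mean of at least 10 CPM, 8 of 46 tested genes were called, 3 higher and 5 lower. The share of all genes called under that filter is not given here, so nothing is read from this count.

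Of the other alpha genes, 5 of 10 were tested and *Gna11*, the close relative of *Gnaq*, fell from 203 ± 31.3 to 138 ± 16.7 CPM (SD, n = 8 each; log2 fold change -0.55, limma adjusted p = 0.000734), with no overlap. It thus differed in the same direction as *Gnaq*. *Gna12*, *Gna13*, *Gnal* and *Gnaz* did not pass (0.07 to 0.46). The pooled values of *Gnaz* and *Gnal*, singled out after their values were seen, averaged opposite directions in the sets, with log2 fold changes of 0.84 in replicates 1 to 4 and -0.41 in 5 to 8 for *Gnaz* (interaction, limma adjusted p = 0.0022) and of -0.32 and 1.23 for *Gnal* (interaction, limma adjusted p = 0.0338). Those not tested, the transducins among them, were at 1.30 CPM at most. Of the other beta genes *Gnb4* rose from 8.96 ± 4.15 to 18.1 ± 4.90 CPM (SD, n = 8 each; log2 fold change 1.07, limma adjusted p = 0.00633; 0.0605 in replicates 5 to 8 alone). *Gnb2* did not pass (-0.67, limma adjusted p = 0.121); it was at 12.2 CPM in *Dbx2*-NSPC replicate 4, the sample with the low *Gng5*, and at 54.2 to 92.9 CPM in the other 7 samples of that group. Of the other 9 gamma genes 3 were tested and 0 passed in limma, edgeR or DESeq2, with 1 at an unadjusted p under 0.05 in limma. That gene, *Gng2*, named after its values were seen, had log2 fold changes of 0.11 in replicates 1 to 4 and -1.40 in 5 to 8 (interaction, limma adjusted p = 0.000466).

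RGS proteins end the signal by speeding GTP hydrolysis, and 2 of the 13 tested passed, where 15.8% of all tested genes did. *Rgs7*, which works in a pair with the product of *Gnb5* and acts on Go and Gi, fell from 59.1 ± 8.43 to 19.4 ± 4.75 CPM (SD, n = 8 each; log2 fold change -1.61, limma adjusted p = 9.04e-07) with no overlap and in both sets (-1.52 and -1.70). *Gnb5* averaged 20.1 CPM in *GFP*-NSPCs against 19.98 CPM in *Dbx2*-NSPCs. *Rgs8*, another regulator of the Gi/o class, rose from 0.283 ± 0.362 CPM, under the floor, to 4.50 ± 2.55 CPM (SD, n = 8 each; limma adjusted p = 9.61e-05). Of the 9 tested chaperones and receptor-independent regulators, *Ric8b*, a chaperone of Gs-class alpha subunits, passed, falling from 28.2 ± 3.76 to 18.005 ± 3.31 CPM (SD, n = 8 each; log2 fold change -0.64, limma adjusted p = 0.00241).

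Of the 15 tested effectors, 3 passed, where 15.8% of all tested genes did. *Adcy2*, an adenylyl cyclase that beta-gamma can stimulate, rose from 0.416 ± 0.523 CPM, under the floor, to 8.11 ± 6.03 CPM (SD, n = 8 each; limma adjusted p = 2.41e-05), by 3.18 and 3.14 on the log2(CPM + 0.5) scale in the sets. *Plcb1*, a phospholipase C-beta downstream of Gq, rose by 0.53 (30.4 and 44.4 CPM, limma adjusted p = 0.0331; 0.286 in replicates 1 to 4 alone), and *Prex1*, a Rac exchange factor that beta-gamma activates, fell by 0.49 (82.5 and 58.8 CPM, limma adjusted p = 0.00462; 0.0646 in replicates 5 to 8 alone). The other adenylyl cyclases tested did not pass.

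Of the 34 Gi/o-coupled receptors listed, 10 were tested and 5 passed, where 15.8% of all tested genes did. Of those that passed, *Grm4* and *Sstr2* came through the filter on low values by their *Dbx2*-NSPC samples alone. The count is therefore not read as a result about the receptors. *Grm3*, a metabotropic glutamate receptor, fell from 15.98 ± 5.86 to 1.66 ± 1.11 CPM (SD, n = 8 each; log2 fold change -3.09, limma adjusted p = 1.37e-05), with 7.76 to 24.0 CPM against 0 to 2.71 CPM. *Grm4*, of the same family, rose from 0.55 ± 0.537 CPM, under the floor, to 5.28 ± 3.31 CPM (SD, n = 8 each; limma adjusted p = 0.000486). The sphingosine 1-phosphate receptors also differed in direction, with *S1pr2* at 11.03 ± 5.29 and 28.2 ± 14.9 CPM (log2 fold change 1.27, limma adjusted p = 0.0141) and *S1pr1*, named beyond the rule, at 27.6 ± 10.1 and 12.2 ± 3.51 CPM (-1.12, limma adjusted p = 0.00142; 0.0658 in replicates 5 to 8 alone), in *GFP*-NSPCs and *Dbx2*-NSPCs. *Sstr2*, a somatostatin receptor, averaged 0.201 CPM, under the floor, in *GFP*-NSPCs and 1.21 CPM, within the range of the floors, in *Dbx2*-NSPCs (0 to 2.36 CPM). Its limma adjusted p was 0.0427, and 0.0607 without *GFP*-NSPC replicate 1. *Adora1*, the adenosine A1 receptor, named after its values were seen, did not pass over all samples (limma adjusted p = 0.0728; 0.0472 with the replicate block) but had log2 fold changes of -0.11 and 1.503 in the sets (interaction, limma adjusted p = 2.07e-07).

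The list of enzymes that attach or trim the lipids of alpha and gamma subunits holds 8 genes, which were all tested. None of the 8 passed in limma (15.8% of all tested genes did), edgeR or DESeq2, and 2 had an unadjusted p under 0.05 in limma. The farnesyltransferase genes *Fnta* (66.2 and 60.1 CPM) and *Fntb* (27.6 and 24.7 CPM) had log2 fold changes of -0.15 (standard error 0.133) and -0.18 (standard error 0.232). Of the 8 receptor kinases and arrestins 7 were tested and 0 passed in limma, edgeR or DESeq2, with 1 at an unadjusted p under 0.05 in limma.

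**Figure D4:**
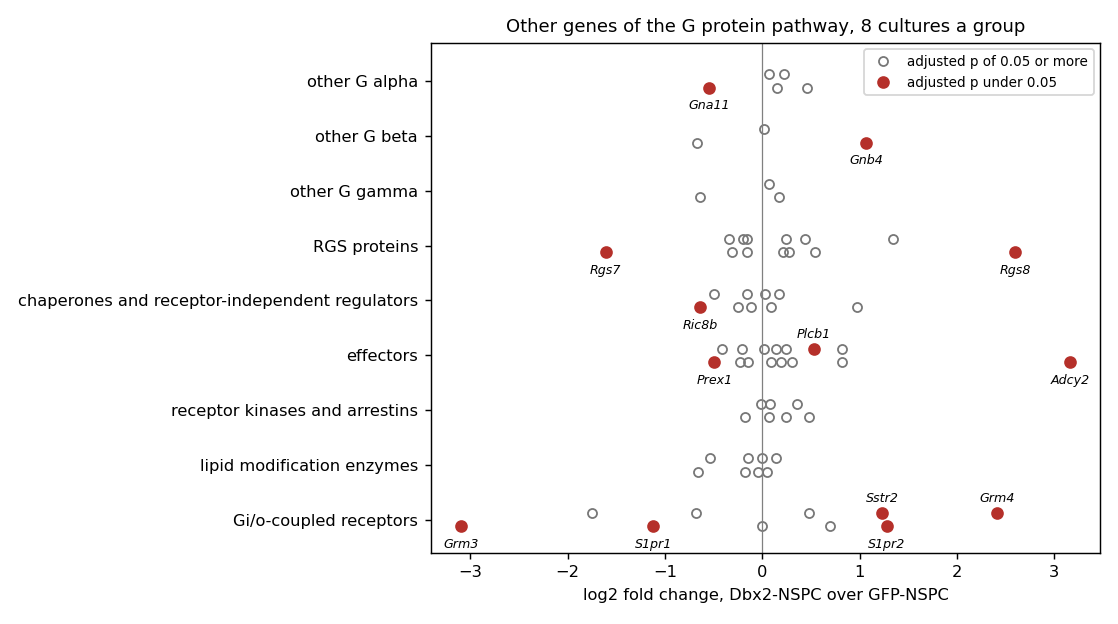
Log2 fold change of *Dbx2*-NSPCs over *GFP*-NSPCs for the 73 tested genes of the pathway lists, 8 samples a group; filled red points passed the threshold and carry their names, and points are offset vertically only to be told apart. The 13 genes that passed lie on both sides of 0, from -3.09 (*Grm3*) to 3.16 (*Adcy2*).

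The genes beside *Gnao1* and *Gng11* on their chromosomes were compared as well. Of the 20 nearest tested genes of *Gnao1*, 3 passed, where 15.8% of all tested genes did, and all 3 were lower in *Dbx2*-NSPCs: *Tox3* (-1.12, limma adjusted p = 1.22e-06), *Sall1* (-0.56, limma adjusted p = 0.0105) and *Fto* (-0.29, limma adjusted p = 0.0333). Of the 12 nearest tested genes of *Gng11*, 2 of which lie before it, 4 passed and all were lower over all samples. These were *Sgce* (-2.27, limma adjusted p = 0.000655), *Bet1* (-0.74, limma adjusted p = 0.0292; 0.0532 with the replicate number as a block), *Sem1* (-0.56, limma adjusted p = 0.00269) and *Ppp1r9a* (-0.39, limma adjusted p = 0.0435). *Bet1* is the nearest, with its start 73.0 kb away. The direction did not hold under every alternative. Of all 32 neighbours, 3 were called higher and 4 lower in replicates 1 to 4 alone. In replicates 5 to 8 alone, 5 were called higher and 7 lower. The share of all tested genes called in each set alone is not given here, so these counts are read for direction only. With the replicate block *Mt3*, beside *Gnao1*, was called higher (0.93, limma adjusted p = 0.000255).

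The change of sign of *Gnb1* was shared with its surroundings, a comparison added after the values were seen. Of the 20 nearest tested genes of *Gnb1*, within 596 kb before and 277 kb after its start, 12 passed the interaction test (9.44% of all tested genes did), 11 of them with the sign of *Gnb1*; 12 also passed without *GFP*-NSPC replicate 1. The difference was negative in 19 of the 20, which is 95% against 47.7% of all tested genes, and its median was -1.40. *Cdk11b*, a kinase gene 133 kb away, had log2 fold changes of 0.60 and -0.76 in the sets (interaction -1.36, limma adjusted p = 2.29e-07), *Atad3a* 0.61 and -1.46 (-2.08, limma adjusted p = 1.40e-07), and *Ski*, a repressor of SMAD signalling, 0.87 and -0.80 (-1.67, limma adjusted p = 1.13e-06). *Hes5* was the exception, with -1.30 and 0.84 (2.15, limma adjusted p = 0.00662). Over all samples only *Fndc10* of the 20 passed (0.93, limma adjusted p = 0.0169). In the neighbourhoods of the other 9 members, 0 (*Gnai3*, in limma; 1 without *GFP*-NSPC replicate 1) to 3 genes passed the interaction test.

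**Figure D5:**
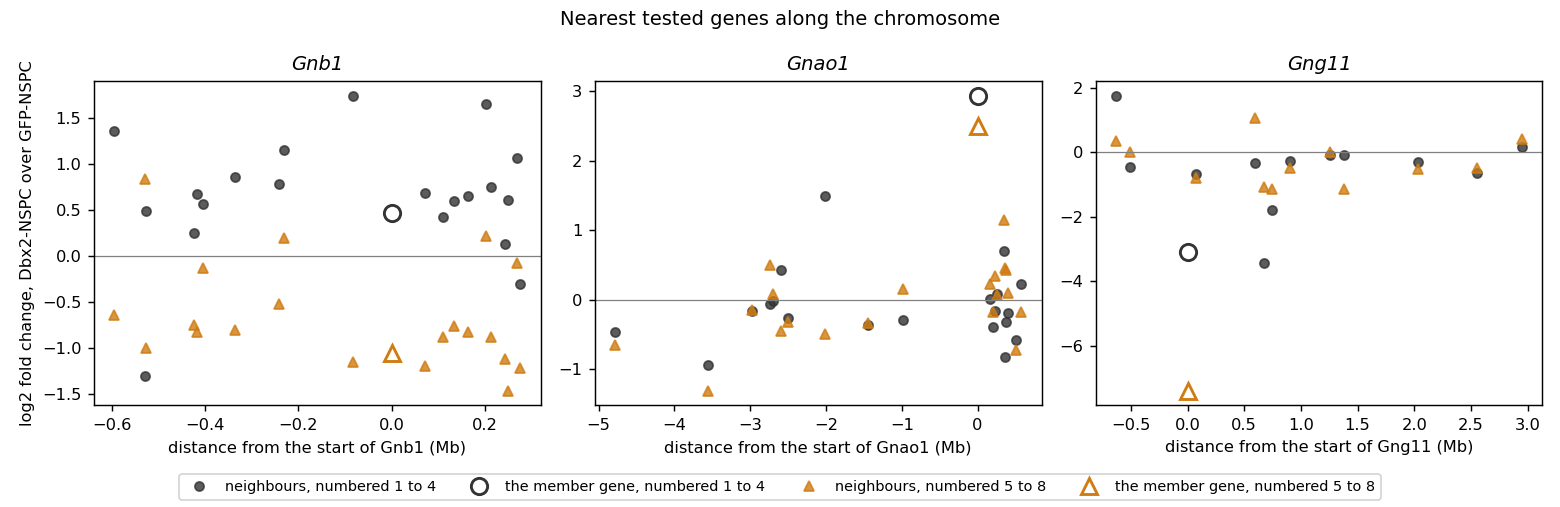
Log2 fold change of *Dbx2*-NSPCs over *GFP*-NSPCs within replicates 1 to 4 (dark circles) and 5 to 8 (orange triangles) for the tested genes nearest to *Gnb1*, *Gnao1* and *Gng11*, against the distance of their starts from the start of the member gene in Mb; large open symbols are the member gene itself. Around *Gnb1*, 18 of 20 neighbours lie above 0 in replicates 1 to 4 and 17 below 0 in replicates 5 to 8, while *Gnao1* in both sets and *Gng11* in replicates 5 to 8 stand far from their neighbours; in replicates 1 to 4 *Sgce*, at -3.44, lies beyond *Gng11*, at -3.10.

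The tested genes most like each member were ranked by Pearson's r of log2(CPM + 0.5) over the 16 samples, as a description; the samples share the transgene, the numbered set and the depth. For *Gnao1* these were *Tspan17*, *Tmem132b*, *Serpina3n*, *Nfasc* and *Prelid3a* (r = 0.961 to 0.950), on 5 chromosomes. For *Gng11* they were *Hdac2*, *Rpf2*, *Rev3l* and *Atp2b1*, which all lie on chromosome 10, and *Map2* (r = 0.966 to 0.948). For *Gnb1*, added after the values were seen, all 5 (*Kif1b*, *Rpl22*, *Szrd1*, *Ube4b* and *Atad3a*, r = 0.972 to 0.964) lie on chromosome 4, at 0.249 to 14.4 Mb from it.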

How the data were processed

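RNA of 8 *Dbx2*-NSPC and 8 *GFP*-NSPC samples was sequenced with QuantSeq 3′ libraries from 100 ng of total RNA each, in single reads of 101 bases. The authors deposited 1 table of CPM, made after trimming with bbduk and alignment with STAR to GRCm38 (Ensembl release 96); the submitters' processing notes give STAR 2.5.0a, FastQC 0.11.8 and edgeR 3.36; the strand used in counting is not given in the sources used here. No column was left out (0). Whole reads were recovered from at least 99.99% of the values above 0 of each sample, within 0.1 read.

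Groups followed the transgene given in the labels. Genes above 1 CPM in 4 or more samples entered limma 3.58.1 (R 4.3.3; eBayes with trend) as log2(CPM + 0.5), with Benjamini-Hochberg adjustment over the 12533 genes and a threshold of 0.05. The models were the transgene alone, the transgene and the numbered set (1 to 4, 5 to 8), and their interaction. A line covariate, which the study used, could not be fitted since the labels do not give the line. The design calls the samples biological replicates, but they are repeat cultures of 2 pairs of lines. The p-values measure the spread between these cultures. With 2 lines per transgene they cannot measure how far independently made lines would differ. The members, the lists and the numbered sets were chosen with earlier results of these data known, so the members got no test of the transgene. Genes named were the members, the genes of each pathway list past the threshold (up to 4 by size), the neighbours past it (10 on each side, fewer where the chromosome ends), the 5 most alike genes of *Gnao1* and *Gng11*, and *Dbx2*; others are said to be named later. A floor is 3 reads per library.

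Same-numbered samples of the groups deviated together, with correlations of 0.152 to 0.303 (mean 0.226), so the number was also fitted as a block; other numbers of the same set gave 0.124 to 0.286 (mean 0.199), and less the set means the same-number mean was 0.040. Other settings tried were the pseudocounts 0.1 and 2, no filter or a mean of 10 CPM, median-of-ratios scaling, eBayes without trend, count tests on the recovered reads (edgeR 4.0.16, DESeq2 1.42.0), the set as covariate, the block, each set alone, and leaving out *GFP*-NSPC replicate 1 or, added after its values were seen, *Dbx2*-NSPC replicate 4. The fits were tested on simulated data. Positions and sequences came from GENCODE M21.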

Additional observations from a re-analysis of the deposited data

Results flagged for a closer look

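The transgene effect differed between the samples numbered 5 to 8 and those numbered 1 to 4 in 4 of the 10 genes, by limma's interaction test. Of all tested genes 9.44% passed this test. In edgeR on the recovered reads 3 of the 10 passed, without *Gng11*. The difference of the log2 fold changes was -1.53 for *Gnb1*, 1.36 for *Gnai1*, 0.58 for *Gng12* and -4.29 for *Gng11*. For *Gng11* the *Dbx2*-NSPC samples are at 2 reads or fewer in both sets, so the difference follows the *GFP*-NSPC levels of 4.88 ± 1.43 and 126 ± 27.2 CPM (SD, n = 4 each). The sets coincide with the replicate numbers alone, and what the numbers mean cannot be told from the labels. Dixon's test marked no sample in the 20 groups of 8, which pool sets that differ. Within the sets, 40 groups of 4, added after the values were seen, it marked *GFP*-NSPC replicate 1 for *Gnb1* (288 CPM, the other 3 at 173 to 186 CPM) and for *Gnai3* (29.8 CPM, the other 3 at 37.1 to 38.0 CPM), and *Dbx2*-NSPC replicate 2 for *Gng11* (0.61 CPM, the other 3 at 0). Chance marks about 1 in 20 groups.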

How the results depend on the processing

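The count of 13 pathway genes called with the transgene was 8 with a mean of at least 10 CPM, which left 46 tested, and 25 in samples numbered 5 to 8 alone. The count of 7 neighbours of *Gnao1* and *Gng11*, all lower, was 12 (5 higher) in samples 5 to 8 alone; the cause was not tested. The share of all tested genes called under that filter and in samples 5 to 8 alone is not given here, so these counts are not read further. The replicate block called 2723 of all 12533 tested genes. It gave 17 pathway genes, adding *Rgs4*, *Rgs12*, *Adora1* and *Gabbr2*, and 8 neighbours, adding *Mt3* and *Peg10* and losing *Bet1*. It changed no other call among these. Under the other alternatives these counts were 13 to 18 and 5 to 9, 4 or 5 members would be called in the difference between the sets, and the interaction passed in 3 or 4. The sign of the pooled log2 fold change turned in samples 1 to 4 alone for *Gnb1* (0.47, with -1.06 in 5 to 8), *Gnai1* (-0.05 against 0.63 over all samples) and *Gnas* (-0.05 against 0.01). The uncalled difference of the transgene effect between the sets for *Gnai3* turned from 0.12 to -0.02 without *Dbx2*-NSPC replicate 4. *Gng11* was at -7.96 in edgeR and -8.18 in DESeq2. *Gnas* would not be counted in the difference between the sets with no filter, without trend or without *GFP*-NSPC replicate 1. *Sstr2* lost its call in samples 1 to 4 alone (limma adjusted p = 0.301). Genes near the floor are limited by depth.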
